A study of Mus musculus with 3 samples.

Results

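Wnt pathway transcripts were described in intestinal epithelial cells (IEC) sorted from mouse small intestinal organoids (SIO) that had been co-cultured with group 3 innate lymphoid cells (ILC3). The members were the protein-coding genes whose symbols begin with Wnt, Fzd, Sfrp or Dkk and a number, together with Lrp5, Lrp6, Kremen1, Kremen2, Porcn, Wls, Ctnnb1, Apc, Axin1, Gsk3b, Tcf7, Lef1, Tcf7l1 and Tcf7l2. This gave 51 of the 35824 genes in the count table. They comprised 19 Wnt ligands, 2 genes of ligand secretion, 10 Frizzled receptors, 2 LRP co-receptors, 10 secreted antagonists or Kremen proteins, 4 genes of beta-catenin and its destruction complex, and 4 TCF/LEF factors.

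The study asked how ILC3 alter epithelial differentiation in organoids. The SIO, crypt-derived epithelial structures in a gel matrix, came from the ileum of female CD45.1 mice aged 6 to 8 weeks per the sample labels, and were kept in medium with R-spondin, Noggin and EGF, for which the methods name no added Wnt ligand. ILC3 were sorted from the small intestine of reporter mice and cultured with freshly disrupted SIO for 4 days in the same medium with IL-2, IL-7 and IL-15, after which EpCAM+ CD45- cells were sorted for RNA. All 3 libraries used here belong to this condition, IEC + ILC3, so that every one of them had received R-spondin, the cytokines and ILC3. They are called A, B and C, and the labels mark A and B as part of the final analysis and C as left out of it. The labels call the libraries biological replicates and give nothing further on separate cultures. Because C stands alone in its group, p-values rest only on the difference between A and B, pooled with that of other genes. Organoids without ILC3 (IEC ONLY) were not analysed here, and no effect of ILC3 on a Wnt gene can be read from these values.

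Wnt ligands carry a lipid that Porcn attaches and are brought to the cell surface by the carrier Wls. They bind a Frizzled receptor together with Lrp5 or Lrp6, which stops the complex of Apc, Axin and Gsk3b from marking beta-catenin for destruction, and beta-catenin then acts on target genes through the TCF/LEF factors. In the small intestinal crypt this pathway maintains Lgr5+ stem cells, Paneth cells are an epithelial source of Wnt3, and R-spondin raises Wnt receptor levels at the cell surface.

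The libraries held 17946361 (A), 23142849 (B) and 28913885 (C) counts, and between 11986 and 12964 genes reached 10 counts in a library. Levels are given as CPM, counts scaled to library depth with TMM factors. All 10 defining epithelial genes examined had at least 10 counts in each library. Of 20 ILC3 and lymphocyte markers 11 were at 0 in all libraries, among them Il22, Gata3 and Cd3e, and Ptprc, which encodes CD45, had 1 count in A and 0 in B and C. Of 20 stromal markers 10 were at 0 throughout, including Col1a1, Col3a1 and Pdgfra, with a summed level of 12.5 CPM (A), 16.3 (B) and 2.80 (C). Levels of different genes are set side by side as CPM per kilobase of transcript. Exceptions are sums over groups of genes given in CPM, and the genes named from pathway lists by highest mean CPM, which are not corrected for length. A transcript level here can reflect the number of cells of a type or the RNA per cell, which bulk libraries cannot tell apart.

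Upstream sequences are shown for Wnt3 and Wnt5b, because these 2 ligands carried nearly all of the ligand level in library C and differ in how evenly they were present across libraries. The sequences are from RefSeq on GRCm38.p6, written 5′ to 3′ on the strand of the gene, and end at the annotated start of the transcript. For Wnt3 the last 25 bases of the 250-base window were cut off, because GENCODE places them in the first exon. Wnt5b has 3 annotated starts. Capitals mark a match to a TCF/LEF recognition motif, searched as CTTTGAA and CTTTGAT on both strands.
Wnt3 chr11:103773925-103774149 (+ strand): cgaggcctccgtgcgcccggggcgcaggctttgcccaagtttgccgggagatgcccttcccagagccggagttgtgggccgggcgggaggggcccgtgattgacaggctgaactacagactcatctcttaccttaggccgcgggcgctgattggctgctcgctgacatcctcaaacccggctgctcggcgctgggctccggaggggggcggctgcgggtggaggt
Wnt5b chr6:119449387-119449636 (- strand): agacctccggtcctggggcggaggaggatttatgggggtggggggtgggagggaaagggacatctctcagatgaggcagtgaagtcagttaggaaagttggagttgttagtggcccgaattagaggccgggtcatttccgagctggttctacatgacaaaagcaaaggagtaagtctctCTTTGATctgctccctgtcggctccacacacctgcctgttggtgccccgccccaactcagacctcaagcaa
Wnt5b chr6:119467212-119467461 (- strand): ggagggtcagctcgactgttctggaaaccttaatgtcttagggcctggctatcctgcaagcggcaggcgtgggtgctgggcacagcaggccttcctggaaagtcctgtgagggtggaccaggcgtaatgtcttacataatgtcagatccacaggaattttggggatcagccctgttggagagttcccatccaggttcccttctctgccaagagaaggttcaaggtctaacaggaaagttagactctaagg
Wnt5b chr6:119544348-119544597 (- strand): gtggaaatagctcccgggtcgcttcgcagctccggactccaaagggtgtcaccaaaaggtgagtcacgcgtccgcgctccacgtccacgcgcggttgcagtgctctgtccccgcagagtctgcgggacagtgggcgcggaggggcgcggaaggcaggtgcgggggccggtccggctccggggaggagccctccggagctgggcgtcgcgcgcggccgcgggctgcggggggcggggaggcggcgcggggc

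The only match lay in the Wnt5b window nearest to the 3′ end of the gene, 71 bases before the start. Of 51 members 33 had an entry in the RefSeq promoter table, with 42 windows between them, and 3 windows held the motif (7.14%), those of Dkk1, Wnt11 and Wnt5b. Among all 32851 windows of the same length 7.48% held it, so that members carried the motif about as often as promoters at large. The estimated counts do not show which Wnt5b start was used. Of the members whose counts differed most between libraries, Kremen1 and Lrp5 had no entry.

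Roughly the same number of members was detected in each library. At least 10 counts were found for 22 members in A, 20 in B and 21 in C, and for 18 members in every library. Another 6 members reached 10 counts in some libraries only, which were Wnt5b, Wnt9a, Wnt10a, Fzd4, Kremen1 and Lef1. For 8 members the highest count in a library was between 1 and 8, namely Wnt2b, Wnt9b, Tcf7l1, Dkk1, Kremen2, Sfrp1, Sfrp4 and Sfrp5. The other 19 members were at 0 in all libraries, where a count of 0 allows up to 0.164 CPM (A), 0.131 (B) and 0.105 (C). They were 12 Wnt ligands, Fzd1, Fzd8, Fzd10, Dkk2, Dkk3, Dkk4 and Sfrp2. The members together made up 930 CPM (A), 994 (B) and 757 (C). Per kilobase of mean transcript length beta-catenin (Ctnnb1) gave more than all others combined in every library. With the longest transcript of each gene this did not hold in C, where Ctnnb1 gave less than the others combined.

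**Figure D1:**
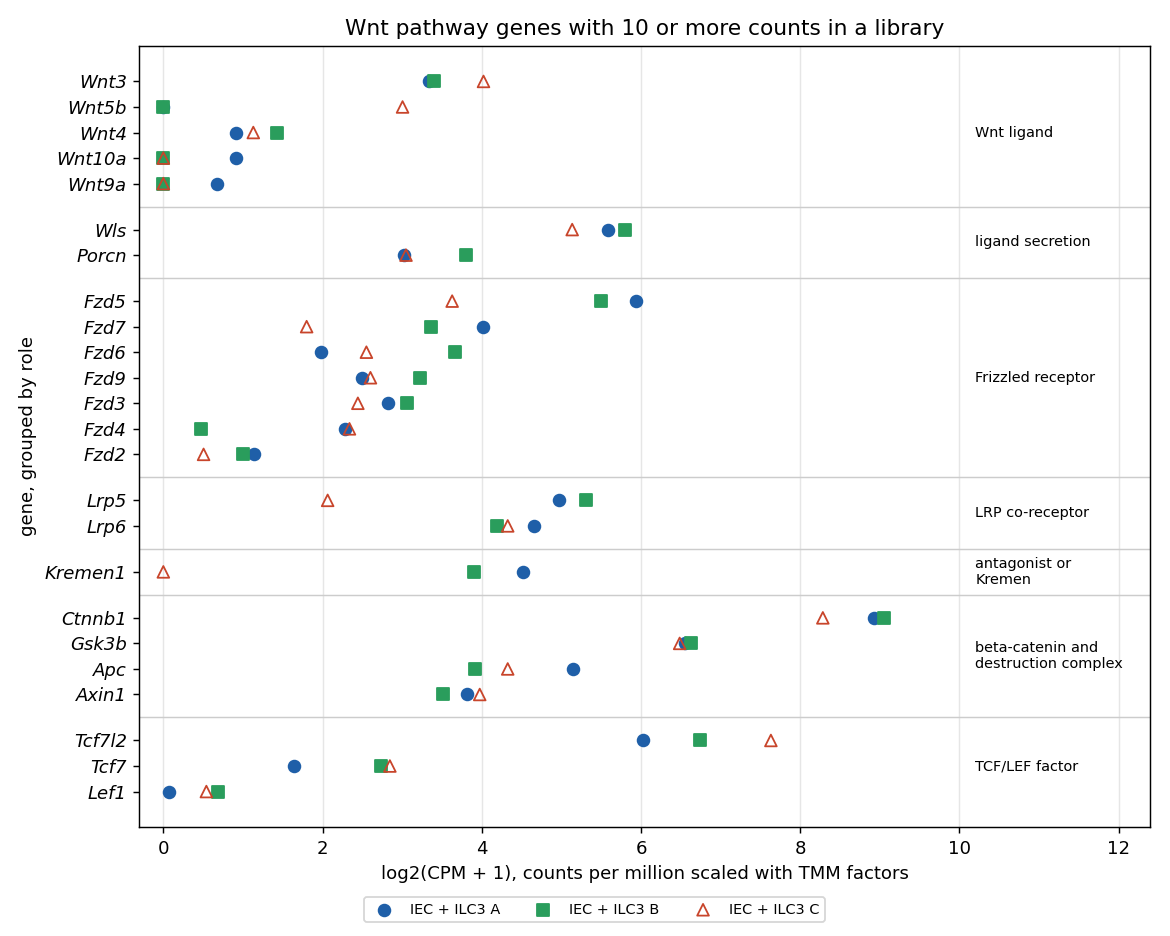
Level of the 24 members with at least 10 counts in a library, as log2(CPM + 1), with 1 symbol per library and genes grouped by role. Where symbols coincide at 0 the later library is drawn on top, as for Wnt5b, which was at 0 in A and B and at 7.03 CPM in C.

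Wnt3 was the leading ligand of these epithelial cells. Its position is 103774150 to 103817957 on chromosome 11 of GRCm38, and it had 167 counts (A), 219 (B) and 436 (C), or 9.13, 9.54 and 15.2 CPM (11.3 ± 3.42 CPM, SD, n = 3). A and B were nearly equal and C was above both, but the difference was within the error of the test (log2 fold change of C over A and B 0.70, SE 0.49, adjusted p = 0.412 by edgeR's quasi-likelihood test over all genes). Per kilobase Wnt3 made up 74.5% of the summed ligand level in A, 87.6% in B and 59.3% in C. Wnt3 ranked first among ligands in every library.

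Wnt5b, a ligand best known for signalling that does not use beta-catenin, was seen in library C only. The gene spans 119432531 to 119544347 on chromosome 6, and had 0 counts in A and B and 201 in C, or 7.03 CPM. With a floor of 3 counts per library, the level in C was at least 42.9-fold higher, and edgeR's quasi-likelihood test called the difference (adjusted p = 0.0432). Only 0.0992% of the genes with at least 100 counts in C were at 0 in both A and B (10 of 10078), and of the 16 members with that many counts in C Wnt5b was the only such gene. In C it accounted for 37.4% of the ligand level per kilobase.

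Wnt4 was low in every library, with 16, 39 and 34 counts in A, B and C, or 0.874, 1.70 and 1.19 CPM. The exact Poisson 95% intervals of A (0.50 to 1.42 CPM) and B (1.21 to 2.32 CPM) overlapped, as did those of B and C (0.823 to 1.66 CPM). Wnt10a and Wnt9a were found in library A alone. Wnt10a had 16 counts there (0.874 CPM, interval 0.50 to 1.42) and Wnt9a 11 counts (0.601 CPM, interval 0.300 to 1.08), against 0 in B and C. Wnt10a was not called (adjusted p = 0.376, edgeR) and Wnt9a was not tested because its counts were too low. Wnt2b and Wnt9b had at most 5 counts, and the 12 ligands at 0 included Wnt2, Wnt3a, Wnt5a and Wnt6. Each library therefore held Wnt3 and a little Wnt4, and they differed in whether a further ligand reached 10 counts.

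Both genes of ligand secretion were present throughout. Wls, the carrier of lipid-modified Wnts, had 860, 1259 and 977 counts, or 47.0 CPM (A), 54.9 (B) and 34.2 (C). Porcn, the acyltransferase that adds the lipid, had 130, 298 and 208 counts, or 7.11, 13.0 and 7.27 CPM. C was below A and B for Wls and close to A for Porcn, and neither gene was called (log2 fold change −0.58, SE 0.32, adjusted p = 0.310 for Wls, and −0.47, SE 0.62, adjusted p = 0.687 for Porcn, edgeR). Per kilobase Wls exceeded Porcn 4.39-fold in A, 2.81-fold in B and 3.12-fold in C. With the longest transcript in place of the mean transcript length these ratios were 3.50, 2.24 and 2.49. Wls stood at the 54.3rd percentile of the 11208 genes with 10 counts in each library, whose median was 13.5 CPM per kilobase, while Wnt3 stood at the 21.4th.

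**Figure D2:**
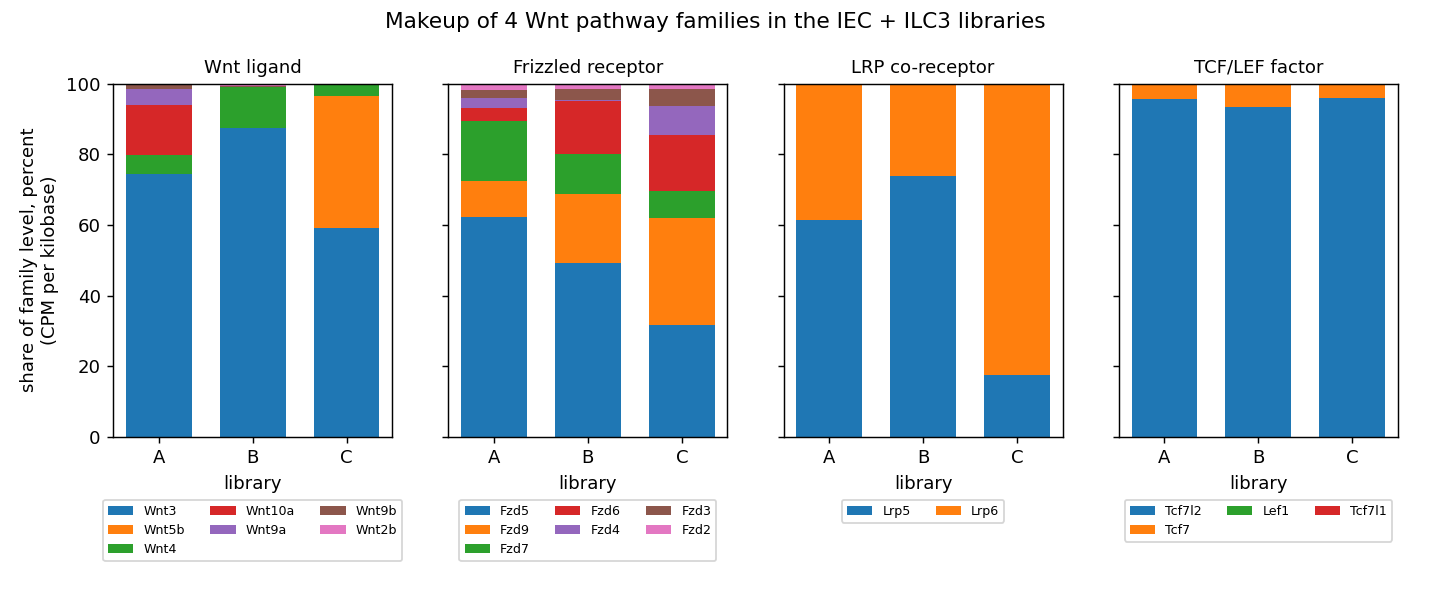
Share of each gene in the summed CPM per kilobase of its family, in percent, for ligands, Frizzled receptors, LRP co-receptors and TCF/LEF factors in libraries A, B and C. Wnt3, Fzd5 and Tcf7l2 were the largest part of their families in each library by mean transcript length. Lrp5 was the larger part of its pair in A and B (61.5% and 74.0%) and the smaller in C (17.5%). With the longest transcript, not plotted, Fzd9 exceeded Fzd5 in C (33.5% against 24.9%).

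Across all 13604 genes tested, 6.56% were called in C against the other libraries (adjusted p under 0.1, the threshold of the study), 1.36% as higher and 5.2% as lower in C. Of the 23 members tested 4 were called, Wnt5b as higher and Kremen1, Lrp5 and Fzd5 as lower, and 7 members had an unadjusted p under 0.05. No share over all genes was computed at that unadjusted cut, so counts at it have no background here or below. The median log2 fold change was −0.36 over the members and −0.10 over all genes tested, and the median size of the change was 0.66 against 0.61. With 1 library against 2 the test has 1 residual degree of freedom per gene, takes C to vary like A and B, and compares libraries rather than conditions. The members not called can still differ, since several had standard errors above 1 on the log2 scale.

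Fzd5, which encodes the Frizzled receptor that Paneth cell differentiation is known to need, was the most abundant receptor. It lies on chromosome 1 from 64730558 to 64737751 and had 1103 counts (A), 1015 (B) and 325 (C), or 60.3, 44.2 and 11.4 CPM. C was well below both other libraries, and the level of Fzd5 in C was 0.217 times the mean of A and B (log2 fold change −2.21, SE 0.39, adjusted p = 0.0377, edgeR). An antisense gene, Gm38058, overlaps 1233 exonic bases of Fzd5, and because the libraries carry no strand mark, reads of both genes cannot be told apart. Gm38058 was not analysed here.

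Fzd7, a receptor known from Lgr5+ stem cells, also had its lowest level in C. It had 278, 213 and 71 counts, or 15.2 CPM (A), 9.28 (B) and 2.48 (C), the last with an exact Poisson 95% interval of 1.94 to 3.13. The groups did not overlap and the mean of A and B was 4.93 times the level in C, but the adjusted p was 0.111 (log2 fold change −2.31, SE 0.68, edgeR). With plain library totals, without the filter on low counts, with a filter of 10 counts in every library or with the Wald test of DESeq2, Fzd7 passed the threshold (adjusted p between 0.0219 and 0.0942). The ratio of Fzd5 to Fzd7 per kilobase was 3.67 (A), 4.40 (B) and 4.23 (C), or 2.60, 3.12 and 3.00 with the longest transcript. The proportion of the pair was thus nearly the same in each library.

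The remaining Frizzled receptors were lower and less uniform. Fzd9 had 85, 191 and 145 counts (4.65, 8.32 and 5.07 CPM in A, B and C) and Fzd3 111, 169 and 127 counts (6.07, 7.37 and 4.44 CPM). Fzd6 had 54, 267 and 139 counts, or 2.95, 11.6 and 4.86 CPM, and differed more between A and B than either did from C. Fzd2 was scarce, at 22, 23 and 12 counts (1.20, 1.00 and 0.419 CPM). Fzd4 had 71 counts in A (3.88 CPM, interval 3.03 to 4.89), 9 in B (0.392 CPM, interval 0.179 to 0.745) and 116 in C (4.06 CPM), so it was B and not C that stood apart for this receptor. None of these 5 genes was called in C (adjusted p between 0.647 and 0.803, edgeR).

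In order of level per kilobase over the 3 libraries, Fzd5 (7.88 ± 5.08) came before Fzd9 (2.62 ± 0.88), Fzd7 (1.98 ± 1.40), Fzd6 (1.54 ± 1.09), Fzd3 (0.47 ± 0.12), Fzd4 (0.41 ± 0.31) and Fzd2 (0.24 ± 0.11, SD, n = 3). Among neighbours in this order the ranges over the libraries overlapped for Fzd5 and Fzd9, Fzd9 and Fzd7, Fzd7 and Fzd6, Fzd3 and Fzd4, and Fzd4 and Fzd2. Fzd6 was above Fzd3 in every library, as Fzd3 was above Fzd2. By mean transcript length Fzd5 was first in each library, but in C its 2.32 CPM per kilobase was close to the 2.21 of Fzd9. The share of Fzd5 in the family was then 62.2% (A), 49.1% (B) and 31.7% (C), and that of Fzd9 10.3%, 19.8% and 30.3%. With the longest transcript Fzd5 was still first in A and B, but in C Fzd9 (33.5%) came before Fzd5 (24.9%). The summed level of the family per kilobase was 19.8 (A), 18.4 (B) and 7.30 (C).

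Of the 2 LRP co-receptors, Lrp5 was called in C and Lrp6 was not, and the difference between their changes was not tested. Lrp5, on chromosome 19 from 3584828 to 3686564, had 554 counts (A), 887 (B) and 91 (C), or 30.3, 38.7 and 3.18 CPM (interval in C 2.56 to 3.91). Lrp5 fell 10.8-fold in C (log2 fold change −3.44, SE 0.47, adjusted p = 0.0192, edgeR), with no overlap between C and the other libraries. Lrp6, on chromosome 6 from 134446476 to 134566965, had 442, 398 and 545 counts, or 24.2, 17.3 and 19.1 CPM. The level of Lrp6 in C was inside the range of the others, and the log2 fold change was −0.13 (SE 0.43, adjusted p = 0.886, edgeR).

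The ratio of Lrp5 to Lrp6 per kilobase was 1.60 (A), 2.84 (B) and 0.213 (C). With the longest transcript in place of the mean transcript length it was 2.28, 4.05 and 0.303, so the order of the pair turned in C under either length. A and B themselves differed less than 2-fold in this ratio. Both proteins serve as co-receptors of Frizzled for the beta-catenin branch, and Lrp6 was between 17.3 and 24.2 CPM in every library.

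Kremen1, a membrane receptor for Dkk proteins that removes LRP co-receptors from the surface, was the only antagonist with more than 8 counts in a library. It lies on chromosome 11 from 5191552 to 5261558 and had 400 counts (A), 321 (B) and 0 (C), or 21.9, 13.99 and 0 CPM. The level in C was lower by at least 171-fold against a floor of 3 counts (adjusted p = 0.0144, edgeR). Among 9617 genes with at least 100 counts in A and in B 65 (0.676%) had 0 in C, and Kremen1 was the only such gene among 14 members. Its paralog Kremen2 had 1, 7 and 2 counts in A, B and C.

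The secreted antagonists were near the floor. Dkk1, a ligand of LRP co-receptors and Kremen, had 1, 6 and 2 counts, and Dkk2, Dkk3 and Dkk4 had 0. Among Sfrp genes, whose products bind Wnts outside the cell, Sfrp5 had 8 counts in A and 0 in B and C, Sfrp1 and Sfrp4 had 1 count in B, and Sfrp2 had 0. Libraries A and B thus held Kremen1 transcripts beside at most 6 counts of any Dkk gene.

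**Figure D3:**
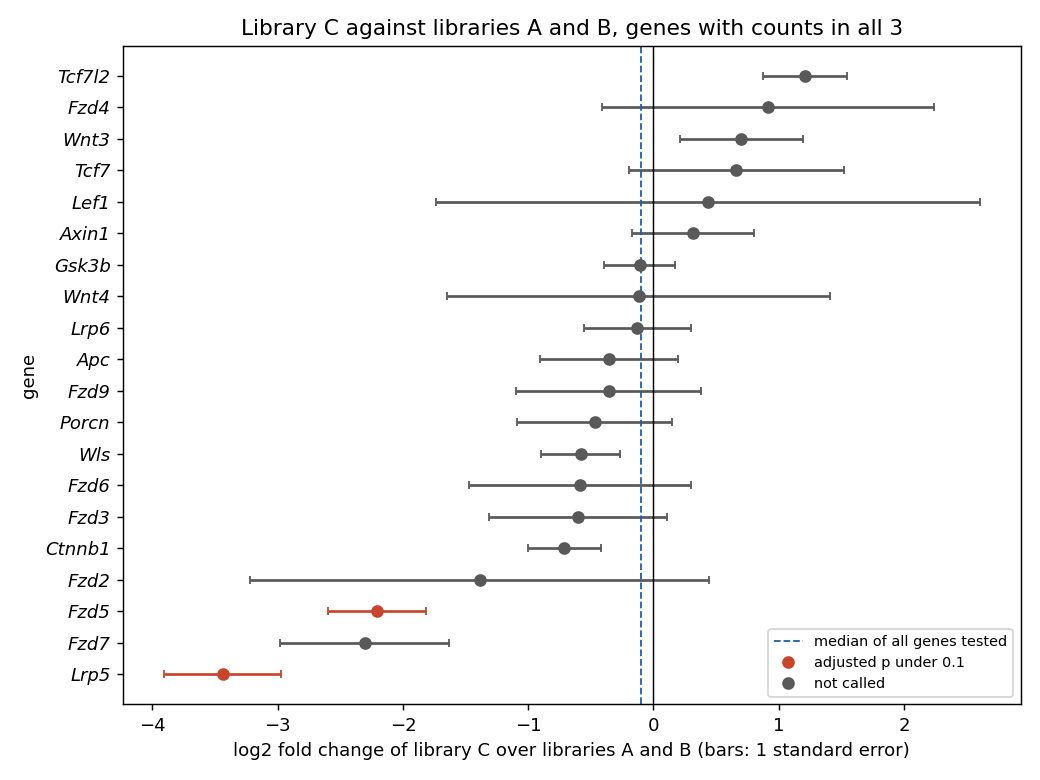
Log2 fold change of library C over libraries A and B for the 20 members tested with counts in all 3 libraries. Bars show 1 standard error, calculated from the fold change and the F statistic of edgeR's quasi-likelihood test. The dashed line is the median of all genes tested (−0.10), and Lrp5 (−3.44) and Fzd5 (−2.21), in red, were called at an adjusted p under 0.1.

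Beta-catenin was the most abundant member in every library. Ctnnb1, on chromosome 9 from 120929216 to 120960507, had 8894, 12107 and 8888 counts, or 486 CPM (A), 528 (B) and 311 (C). C was below A and B, whose levels lay close together, and the log2 fold change of −0.71 (SE 0.29) had an unadjusted p of 0.0410 and an adjusted p of 0.205 (edgeR). Per kilobase Ctnnb1 was at the 96.6th percentile of genes. Its exons overlap those of Ulk4 on the other strand, which had at most 24 counts in a library.

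The destruction complex genes showed smaller differences. Gsk3b, the kinase that marks beta-catenin, had 1692, 2247 and 2535 counts, or 92.5, 97.9 and 88.6 CPM, and had the smallest SD relative to its mean among the 18 members detected throughout (93.0 ± 4.68 CPM, SD, n = 3). Axin1, the scaffold, had 239, 240 and 421 counts, or 13.1, 10.5 and 14.7 CPM. Apc, the other scaffold, had 630, 324 and 545 counts, or 34.4, 14.1 and 19.1 CPM, and was higher in A than in B and C. None was called in C (adjusted p 0.851 for Gsk3b, 0.731 for Axin1 and 0.733 for Apc, edgeR). Per kilobase Gsk3b exceeded Axin1 4.94-fold in A, 6.53-fold in B and 4.20-fold in C, and Ctnnb1 exceeded Apc 72.1-fold, 191-fold and 83.3-fold. With the longest transcript in place of the mean length these ratios were smaller. They were 3.22, 4.26 and 2.74 for Gsk3b over Axin1, and 49.9, 132 and 57.7 for Ctnnb1 over Apc.

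Tcf7l2, the TCF factor that maintains the intestinal stem cell compartment, dominated its family. It lies on chromosome 19 from 55741820 to 55933654 and had 1177 counts (A), 2426 (B) and 5644 (C), or 64.3, 106 and 197 CPM. The 3 levels lay well apart, with C highest at 2.32 times the mean of the others, and the adjusted p was 0.102 (log2 fold change 1.21, SE 0.34, edgeR). The same 4 alternatives that called Fzd7 also called Tcf7l2, with adjusted p between 0.00258 and 0.0789. Its share of the TCF/LEF level per kilobase was 95.7% (A), 93.3% (B) and 96.1% (C), and thus hardly moved.

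Tcf7, which encodes TCF1, had 39, 130 and 177 counts, or 2.13 CPM in A (interval 1.52 to 2.91), 5.67 in B and 6.19 in C. Library A was the low one for Tcf7, and C was close to B (log2 fold change 0.66, SE 0.86, adjusted p = 0.680, edgeR). Lef1 had 1, 14 and 13 counts, and 1208 of its exonic bases overlap the antisense gene Gm43352. Tcf7l1, often a repressor of Wnt targets, had 2 counts in A and 0 in B and C. Both TCF factors with 10 counts in every library were at their highest in C, while Fzd5, Fzd7, Lrp5 and Ctnnb1 were at their lowest there.

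Of the 18 members with 10 counts in each library, 6 had a level in C between those of the others. The level in C was above both for 4 (Wnt3, Tcf7, Tcf7l2 and Axin1). It was below both for 8 (Fzd2, Fzd3, Fzd5, Fzd7, Lrp5, Ctnnb1, Gsk3b and Wls). This split was not computed over all genes, and C can lie outside A and B by chance. The split therefore does not set the members apart from other genes. Libraries A and B also differed from each other. Of 19 members with 10 counts in both, 3 were more than 2-fold apart, Fzd6 (3.94 times as high in B) and Tcf7 (2.66 times as high in B), and Apc (0.410 times as high in B), where 11.9% of all genes were past 2-fold. The median size of the log2 difference between A and B was 0.48 over the members and 0.35 over all genes.

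Markers of other epithelial cells also differed in C. Against the 5.2% of all genes called lower and 1.36% called higher, 6 of 13 tested tuft cell markers were lower in C and 0 higher. The 15 tuft cell markers listed had a summed level of 62.4 CPM (A), 101 (B) and 25.5 (C). Of them 2 were at 0 in A, 1 in B and 9 in C, and no share over all genes was computed for this count. Of 15 goblet cell markers 4 were lower and 0 higher, with sums of 2763, 3526 and 2380 CPM. By edgeR no marker was called among 13 tested Paneth cell genes (14630, 20552 and 21805 CPM), 15 stem cell genes (8216, 10195 and 8641 CPM), 11 tested enteroendocrine genes or 14 tested enterocyte genes, and 2 of 6 tested stromal markers were lower in C. At an unadjusted p under 0.05 there were 3 Paneth, 4 stem, 4 enteroendocrine and 4 enterocyte markers, and DESeq2 called 2, 3, 0 and 2. DESeq2 also called more of all genes than edgeR did, so its counts do not compare with the shares above. The part of these cells in the levels of Fzd5, Lrp5, Kremen1 and Wnt5b was not tested.

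Pathway genes outside the membership rule were read against the 5.2% of all genes that edgeR called lower and the 1.36% it called higher in C. These shares do not apply to counts at an unadjusted p or by the Wald test of DESeq2, which called more of all genes. Of 27 receptor-side genes 17 were tested, and edgeR called 1 as lower and 0 as higher in C (2 and 1 at an unadjusted p under 0.05, and 2 and 1 by the Wald test of DESeq2), with a median log2 fold change of −0.50 against −0.10 over all genes. The gene called was Ror2, a receptor of Wnt ligands of the Wnt5 type, at 21.0 CPM (A), 37.6 (B) and 7.80 (C), with a call in C (log2 fold change −1.91, SE 0.50, adjusted p = 0.0918, edgeR). It was not called at a threshold of 0.05, after removal of the length or GC trend, or with TMM factors over all genes. The 1 gene called lower among 17 tested was close to the 5.2% of all genes called lower. C was the library with Wnt5b counts and with the lowest Ror2, and a link between the 2 was not tested.

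The 3 of these genes with the highest mean CPM, not corrected for length, were Lgr5, the R-spondin receptor that marks crypt stem cells (256, 330 and 282 CPM in A, B and C), Rnf43, the ligase that removes Frizzled from the surface and that R-spondin restrains (104, 125 and 81.6 CPM), and the glypican Gpc4 (46.6, 54.8 and 57.9 CPM). C lay between A and B for Lgr5, below them for Rnf43 and above them for Gpc4, and none was called. Lgr4, chosen after its values were seen, had 34.3, 25.9 and 65.5 CPM (log2 fold change 1.12, SE 0.32, adjusted p = 0.109, edgeR).

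Of 28 further destruction complex genes and nuclear partners of beta-catenin, 26 were tested and edgeR called 0 in either direction (median log2 fold change −0.22). At an unadjusted p under 0.05 there were 4 lower and 1 higher, and the Wald test of DESeq2 called 3 lower and 0 higher. Of these, Bcl9l, a nuclear co-factor of beta-catenin chosen after its values were seen, had 4.32, 14.1 and 1.05 CPM. Those with the highest mean CPM were Jup, the beta-catenin relative plakoglobin (558, 473 and 339 CPM), Ctnna1, alpha-catenin (345, 385 and 484 CPM), and Cdh1, E-cadherin (298, 413 and 251 CPM), all parts of adherens junctions. Jup and Cdh1 had their lowest level in C, as Ctnnb1 did, while Ctnna1 had its highest there.

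All 21 intestinal Wnt target genes were tested, of which edgeR called 1 as lower and 0 as higher in C (median log2 fold change −0.14). At an unadjusted p under 0.05 there were 5 lower and 1 higher, and the Wald test of DESeq2 called 4 lower and 1 higher. The gene called was Prox1, a transcription factor also found in enteroendocrine and tuft cells, with 121 counts (A), 142 (B) and 1 (C). Its level in A and B was 182 times that in C, with an exact 95% interval of 32.5 to 7232 from counting error (adjusted p = 0.0407, edgeR). The targets with the highest mean CPM were Olfm4, a stem cell gene (5983, 7853 and 5944 CPM), Mmp7, a Paneth cell protease (590, 864 and 776 CPM), and Smoc2, another stem cell gene (531, 528 and 695 CPM). The level in C was inside the range of A and B for Mmp7, just below it for Olfm4 and above it for Smoc2.

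Axin2 and Sox9, chosen after their values were seen, lay on opposite sides of A and B in library C, and neither was called. Axin2, a feedback inhibitor of the pathway, had 26.5, 33.6 and 17.6 CPM (log2 fold change −0.77, SE 0.39, adjusted p = 0.276, edgeR), and Sox9, a Paneth and progenitor cell factor, 107, 110 and 199 CPM (0.87, SE 0.27, adjusted p = 0.125, edgeR). The feedback regulator Sp5 had 6.12, 12.42 and 1.82 CPM and the receptor gene Tnfrsf19, also named Troy, 27, 67 and 0 counts, both chosen after their values were seen and both lowest in C (adjusted p 0.148 and 0.113, edgeR).

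**Figure D4:**
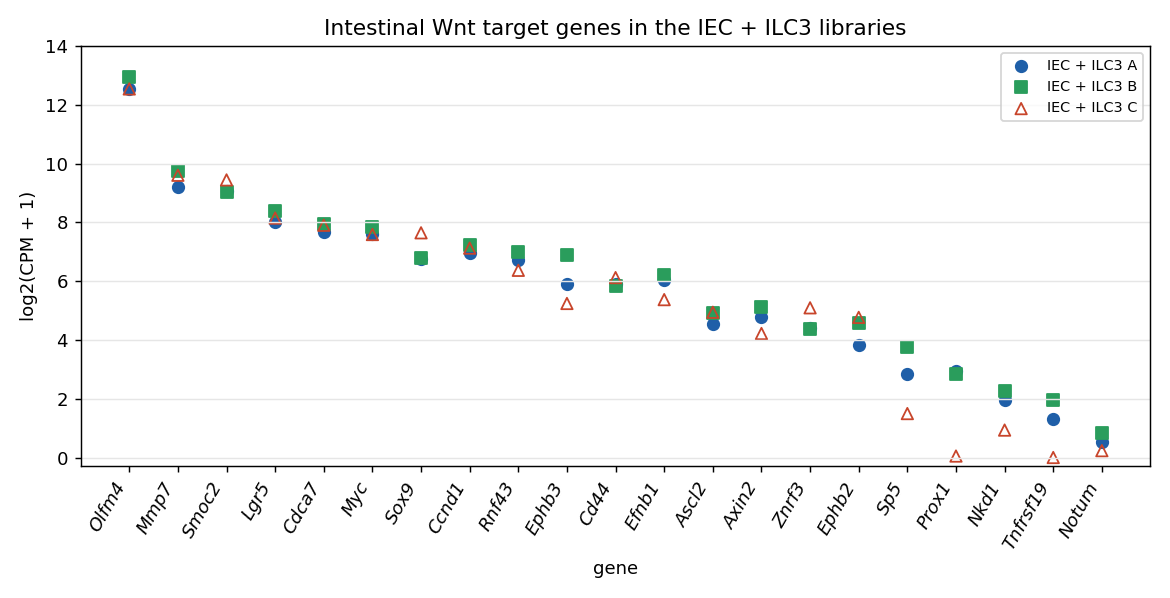
Level of the 21 intestinal Wnt target genes as log2(CPM + 1), ordered by mean level, with 1 symbol per library. Most triangles (library C) lie beside the circles and squares (A and B), and Prox1, with 1 count in C, is the target that was called.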

How the data were processed

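RNA from sorted IEC was converted to libraries with SMART-Seq2, which keeps no strand, and sequenced on an Illumina HiSeq. Reads were trimmed with Trimmomatic 0.39 and quantified with Salmon 0.14.1 against Ensembl release 98 of GRCm38.p6 (versions as in the submitters' processing notes), and tximport was used to sum transcripts by gene. The authors deposited estimated counts per gene in whole numbers, which needed no rounding. Quantification can split reads between near-identical copies, and the split was not examined.

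Symbols, positions and lengths came from GENCODE M21, matched for all 51 members and 35506 of 35824 genes. Lengths are means over protein-coding transcripts, and the releases were not compared. CPM used TMM factors over all genes (edgeR 4.0.16, R 4.3.3). The quasi-likelihood test of edgeR set library C against the other 2. It covered the 13604 genes that passed filterByExpr, with TMM factors recomputed for these and Benjamini-Hochberg adjustment over all of them at 0.1, the study's threshold. Exact Poisson intervals at 95% are given for counts under 100. Such intervals and the floor of 3 counts describe counting error alone, because reads lacked molecular identifiers. Sequences of 250 bases upstream of transcript starts came from RefSeq.

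Members and gene lists were chosen with earlier results of these data known. Members with 10 counts in each library, those with 10 in some, and those called are given with values; of each pathway list the called genes and the 3 highest by mean CPM are named. Alternatives were DESeq2 size factors, plain library totals, other count filters, DESeq2 1.42.0 with its Wald test, a threshold of 0.05, removal of length or GC trends by loess (span 0.5), the longest transcript and leaving out each library. TMM factors over all genes in the test were added after seeing the data. Further software was pandas 2.3.3, numpy 2.4.6, matplotlib 3.10.9 and scipy 1.17.1 under Python 3.11.15.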

Additional observations from a re-analysis of the deposited data

How the results depend on the processing

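No paired analysis was possible because the 3 libraries belong to 1 group. Wnt5b, Kremen1, Lrp5 and Fzd5 were called under every alternative that tested them; a filter of 10 counts in every library leaves Wnt5b and Kremen1 untested. After the length trend was removed their adjusted p was 0.0791, 0.0430, 0.0499 and 0.0891 (edgeR). Members called higher in C rose from 1 to 2 (Tcf7l2 joined) with plain library totals, without a filter and with the Wald test of DESeq2, and Fzd7 joined the 3 called lower. Among receptor-side genes 1 was called higher, against 0, with plain totals, without a filter, with the 10-count filter and with DESeq2. Those called lower went from 1 to 3 without a filter and 2 with DESeq2, and to 0 at a threshold of 0.05, with the length or GC trend removed, or with TMM factors over all genes. Among destruction complex and nuclear genes 1 was called higher without a filter, and 3 were called lower with plain totals, without a filter and with DESeq2, and 2 with the 10-count filter, against 0. Among target genes 1 was called higher, against 0, without a filter, with the 10-count filter and with DESeq2, and 2 were called lower with plain totals and 4 without a filter or with DESeq2, against 1. The cause was not tested. None of the genes that changed sign was called in either fit: with the length trend removed Lrp6 went to 0.15, Wnt4 to 0.13 and Gsk3b to 0.095 (log2), and with the GC trend removed Wnt4 went to 0.0665. Over all genes 892 were called, against 2402 of 17457 without a filter, 1618 with DESeq2, 409 with the length trend removed and 276 at 0.05. Calls higher in C were 20.7% of calls, 34.3% without a filter, 33.4% with the 10-count filter and 5.43% at 0.05.

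Leaving out 1 library, the summed level of the members was between 843 and 962 CPM, 19 members had 10 counts in each remaining library, and the mean share was 94.5% to 95.9% for Tcf7l2, 66.9% to 81.0% for Wnt3, 40.4% to 55.6% for Fzd5, 39.5% to 67.7% for Lrp5 and 88.4% to 90.9% for Ctnnb1. Lrp5 held 39.5% without B and 67.7% without C. Leaving out A or B leaves C against 1 library with no residual degrees of freedom, so only values are given: the log2 difference turned in sign without A for Apc (0.43), Lef1 (−0.36) and Lrp6 (0.13), and without B for Fzd6 (0.70), Fzd9 (0.12), Porcn (0.033) and Wnt4 (0.40). It was 3.08 without A and 0.062 without B for Fzd4, and 0.12 and 1.49 for Tcf7. Leaving out C leaves no comparison. Depth limits the 8 members with at most 8 counts, which did not pass filterByExpr and so were not tested.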
